A study of Mus musculus with 8 samples.

Results

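Ddx58, Ifih1, Dhx58, Irf7, Stat2, Rsad2, Ifit1, Ifit3 and Isg15 are genes of RNA sensing and of the interferon response, and their levels were followed across the 8 arrays of a study of juvenile mouse testis. They were found by their gene names among the non-control probes of the array, with no use of measured values. The 9 genes, of 34821 gene names on the array, have 12 of the 55681 probes, and 10 of the 12, with at least 1 for each gene, were among the 37813 probes tested. The testes came from C57BL/6 mice killed at 17 or 26 dpp (days postpartum). At each age, Ip6k1+/+ mice (called wild type here) were set against Ip6k1-/- mice (knockout), which were littermates from Ip6k1+/- parents. Each of the 4 groups has 2 arrays, named biological replicates in the labels (n = 2 throughout), and each array held 1 RNA sample labelled with Cy3. Which part of Ip6k1 the allele lacks, and whether an RNA sample came from 1 animal, were not stated in the sources used here.

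Cells recognise viral RNA in the cytoplasm with helicases of the RIG-I family, which act through the adaptor Mavs to switch on interferon genes. Secreted interferon binds its receptor, Janus kinases then activate Stat2, which acts with Irf9 at short elements in the promoters of interferon-induced genes. In the testis, somatic cells such as Sertoli cells are known to mount this response. Between the 2 ages compared here, the first wave of germ cells passes from meiotic spermatocytes to spermatids, so the make-up of the tissue changes.

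The element at which Stat2 and Irf9 act was looked for in RefSeq promoter windows of the GRCm38.p6 assembly as the motif GAAANNGAAA on either strand, with overlapping matches counted. The windows run from 250 bases before to 50 bases after each start, and a window was matched for 8 of the 9 genes, all but Dhx58. A match was found in 7 of these 8 windows, all but that of Irf7, against 3.44% of all 32851 windows of this length. In 5 of the 8 the match lay before the start, against 2.98% of all windows. The matches began 120 bases before the start of Rsad2, 104 and 85 before that of Ifit1, 156 and 122 before that of Ifit3, 78, 72 and 66 before that of Isg15, where they overlap, and 222 before that of Stat2. In Ddx58 and Ifih1 the match lay just after the start. The 250 bases before the start are shown for the 4 effector genes with such a match, since these genes lay lower on every array of 26 dpp than on any of 17 dpp, with the matches in capitals and each sequence 5′ to 3′ on the strand of the gene. They lie at chr12:26456453-26456702 (minus strand) for Rsad2, chr19:34640639-34640888 (plus) for Ifit1, chr19:34583279-34583528 (plus) for Ifit3 and chr4:156200819-156201068 (minus) for Isg15. A match describes letters, and binding was not measured.
Rsad2: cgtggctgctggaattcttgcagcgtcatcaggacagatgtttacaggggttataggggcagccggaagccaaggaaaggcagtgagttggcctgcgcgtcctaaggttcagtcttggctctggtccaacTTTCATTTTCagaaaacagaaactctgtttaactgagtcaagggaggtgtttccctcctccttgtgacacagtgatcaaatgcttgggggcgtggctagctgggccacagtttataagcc
Ifit1: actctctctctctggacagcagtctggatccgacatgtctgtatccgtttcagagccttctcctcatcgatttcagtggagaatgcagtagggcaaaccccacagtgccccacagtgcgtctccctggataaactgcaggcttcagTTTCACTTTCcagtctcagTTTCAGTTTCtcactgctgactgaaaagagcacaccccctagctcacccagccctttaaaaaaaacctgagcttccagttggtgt
Ifit3: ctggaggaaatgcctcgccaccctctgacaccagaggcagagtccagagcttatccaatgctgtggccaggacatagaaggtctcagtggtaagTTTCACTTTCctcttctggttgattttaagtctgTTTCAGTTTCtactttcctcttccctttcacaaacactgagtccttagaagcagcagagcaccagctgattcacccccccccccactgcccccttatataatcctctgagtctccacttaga
Isg15: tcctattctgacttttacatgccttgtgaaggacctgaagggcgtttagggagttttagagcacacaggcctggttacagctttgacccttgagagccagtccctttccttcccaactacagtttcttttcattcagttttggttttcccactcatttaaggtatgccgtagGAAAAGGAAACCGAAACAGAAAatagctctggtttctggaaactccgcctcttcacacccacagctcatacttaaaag

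Levels are given as log2 of the processed signal over the 75th percentile of all probes on the same array, so 0 is the signal at that percentile. They compare arrays for a probe, and not one probe with another. The signal of Ip6k1 itself, over 10 spots of its probe, was 2.38 and 2.48 on the wild type arrays and 1.58 and 1.67 on the knockout arrays of 17 dpp, and 2.92 and 2.89 on the wild type arrays and 1.55 and 1.5 on the knockout arrays of 26 dpp, so it was lower on each knockout array. Whether this probe lies in the deleted part of the gene was not stated, and outside that part it checks no label. Between 58.9% and 64.7% of non-control probes were well above background. Replicates correlated across probes at 0.979 to 0.988 in the other groups but at 0.867 in knockout at 26 dpp, where replicate 2 stood apart. Its mean over 8 spermatid markers was −3.95, against 4.47 to 5.74 on the other arrays of 26 dpp and −4.45 to −3.91 at 17 dpp, while its mean over 8 markers of pachytene spermatocytes was 4.60, against 4.77 to 4.89 and 0.47 to 2.56. Epididymis markers (7 of 8 measured) averaged 0.08 and 1.51 in wild type at 17 dpp and −5.48 to −5.24 on the other arrays. Results that rest on knockout replicate 2 at 26 dpp are therefore given with and without it.

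Among these genes only differences by age passed an adjusted p of 0.05. Of all tested probes, too, more passed by age (44.1% in wild type) than by genotype (0.0688% at 17 dpp and 0.00793% at 26 dpp). In wild type testis, Dhx58 rose 24.0-fold from 17 to 26 dpp, and Ifih1 and Rsad2 fell 4.54-fold and 6.58-fold. These were 3 of 9 genes past an adjusted p of 0.05 (1 higher, 2 lower), against 44.1% of all tested probes (17.6% higher, 26.6% lower). Without regard to the test, 6 genes (Ifih1, Irf7, Rsad2, Ifit1, Ifit3 and the brighter probe of Isg15) read lower on all 4 arrays of 26 dpp than on all 4 of 17 dpp, where 30.9% of all probes did so. Dhx58 read higher on all 4, where 18% of probes did so, and Ddx58 and Stat2 overlapped between the ages. Irf7 and Ifit1 passed the filter on dim probes only through the groups of 17 dpp, where they are higher.

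**Figure D1:**
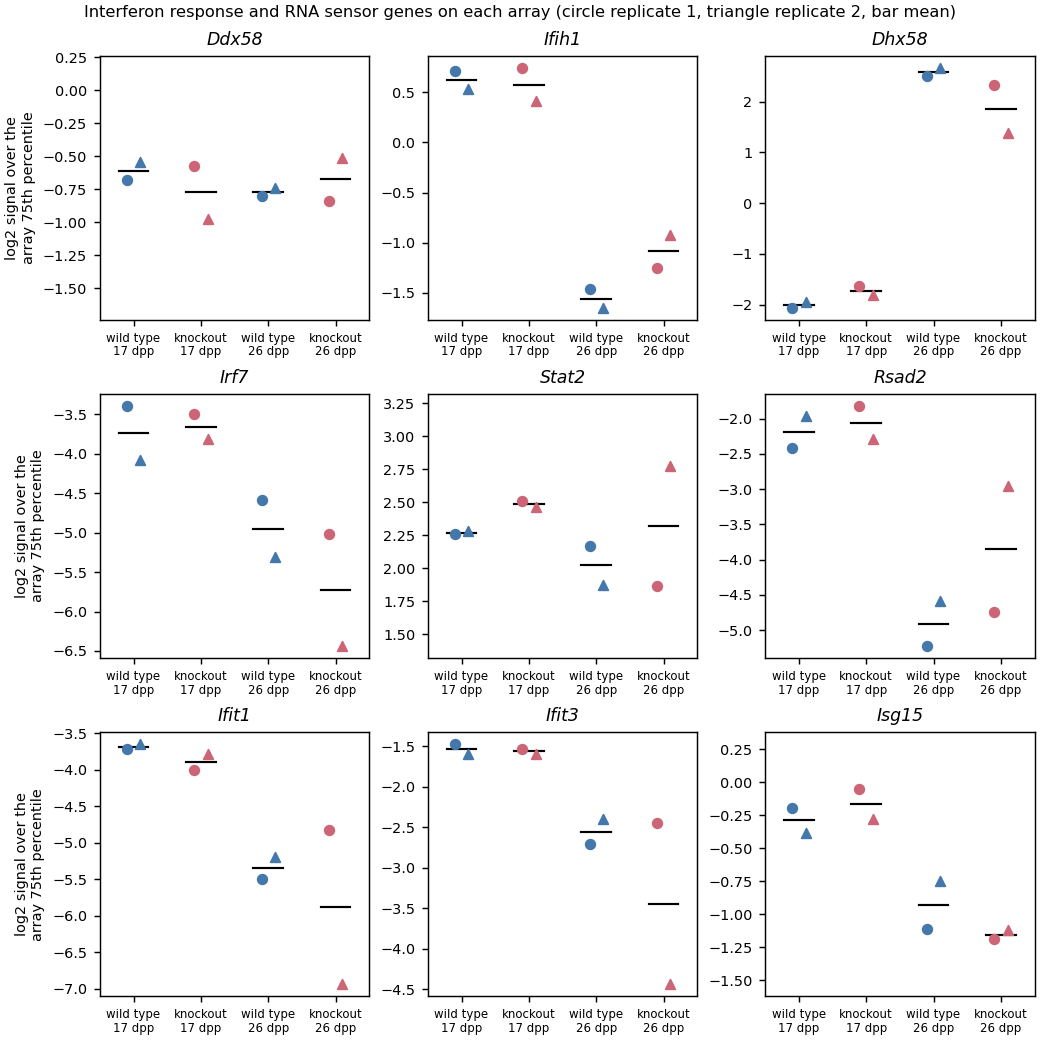
Level of each gene on each array, as log2 signal over the 75th percentile of that array, for wild type (blue) and knockout (red) at 17 and 26 dpp; circles are replicate 1, triangles replicate 2 and bars group means. Dhx58 runs from −2.07 to −1.64 at 17 dpp and from 1.39 to 2.66 at 26 dpp, Ifih1 and Rsad2 move the opposite way, and knockout replicate 2 at 26 dpp lies away from the other arrays of that age for Rsad2, Ifit1, Ifit3 and Irf7.

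The 3 RNA sensors behaved differently from one another. Dhx58 encodes LGP2, the family member without signalling domains, which modulates the other sensors. Its probe (chr11:100556271-100556330, mm9) read −2.07 and −1.94 on the wild type arrays and −1.64 and −1.82 on the knockout arrays of 17 dpp, and 2.50 and 2.66 on the wild type arrays and 2.32 and 1.39 on the knockout arrays of 26 dpp. All arrays of 26 dpp were far above those of 17 dpp, with the lowest of them on knockout replicate 2. The difference between ages was 4.58 on the log2 scale in wild type (SE 0.35, adjusted p = 0.00418) and 3.58 in knockout (SE 0.35, 12.0-fold, adjusted p = 0.0129). Of all tested probes, 94% had a smaller difference in wild type and 95.7% in knockout, so a rise of this size was not rare.

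Ifih1 encodes MDA5, the sensor of long double-stranded RNA. Its brighter probe (chr2:62435507-62435566, mm9) read 0.71 and 0.54 on the wild type arrays and 0.74 and 0.41 on the knockout arrays of 17 dpp, and −1.46 and −1.65 on the wild type arrays and −1.25 and −0.92 on the knockout arrays of 26 dpp. The ages did not overlap in either genotype, and the difference was −2.18 in wild type (SE 0.27, adjusted p = 0.00679) and −1.66 in knockout (SE 0.27, 3.16-fold, adjusted p = 0.0208). The other Ifih1 probe was well above background on 1 array only and was not tested. Ddx58 encodes RIG-I, the sensor of short RNA with a 5′ triphosphate. Its brighter probe (chr4:40151893-40151952, mm9) read between −0.97 and −0.51 on all 8 arrays, and its other probe was not well above background on any. Over all arrays the ages overlapped, but in wild type both arrays of 26 dpp (−0.80 and −0.74) read below both of 17 dpp (−0.68 and −0.55). This wild type difference of −0.16 did not pass the test (95% interval −0.81 to 0.49, adjusted p = 0.632).

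Of the 2 transcription factors, Irf7 carries the signal of the sensors to the interferon genes and is itself induced by interferon. It read −3.40 and −4.09 on the wild type arrays and −3.50 and −3.81 on the knockout arrays of 17 dpp, and −4.59 and −5.31 on the wild type arrays and −5.01 and −6.44 on the knockout arrays of 26 dpp, where 1 of 2 arrays of each genotype was well above background. The ages did not overlap, but the differences did not pass the test, at −1.21 in wild type (95% interval −2.54 to 0.12, adjusted p = 0.110) and −2.07 in knockout (−3.40 to −0.74, adjusted p = 0.0540). Stat2, a transcription factor of type I and type III interferon signalling, was among the genes whose ages overlapped over all arrays. For Stat2 this came only from knockout replicate 2 of 26 dpp, as the other arrays of 26 dpp read below every array of 17 dpp. It read 2.25 and 2.28 on the wild type arrays and 2.51 and 2.46 on the knockout arrays of 17 dpp, and 2.17 and 1.87 on the wild type arrays and 1.86 and 2.77 on the knockout arrays of 26 dpp. Its difference of −0.25 in wild type did not pass the test (95% interval −1.10 to 0.60, adjusted p = 0.567). The probes lie at chr7:148450664-148451014 for Irf7 and chr10:127729834-127729893 for Stat2 on mm9.

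The 4 effectors all read lower at 26 dpp on their brighter probes. Rsad2 encodes viperin, an enzyme that makes a chain terminator of viral RNA synthesis. Its probe (chr12:27127859-27127918, mm9) read −2.41 and −1.97 on the wild type arrays and −1.82 and −2.29 on the knockout arrays of 17 dpp, and −5.23 and −4.59 on the wild type arrays and −4.74 and −2.96 on the knockout arrays of 26 dpp. All arrays of 26 dpp were below those of 17 dpp, and knockout replicate 2 was the closest to them. The difference was −2.72 in wild type (SE 0.61, adjusted p = 0.0206), where 1 of the 2 arrays of 26 dpp was well above background. In knockout it was −1.79 and did not pass the test (95% interval −3.27 to −0.31, adjusted p = 0.0960). The size in wild type depended on the background correction: it was −1.33 with a model-based correction and −1.15 with quantile normalization as well, and it passed under both.

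Ifit1 and Ifit3 encode proteins with tetratricopeptide repeats, of which Ifit1 binds viral RNA by its 5′ end and Ifit3 joins it in a complex. Ifit1 (chr19:34723796-34723855, mm9) read −3.72 and −3.65 on the wild type arrays and −4.01 and −3.78 on the knockout arrays of 17 dpp, and −5.50 and −5.20 on the wild type arrays and −4.82 and −6.94 on the knockout arrays of 26 dpp, where 1 of 2 arrays of each genotype was well above background. Ifit3 (chr19:34663105-34663164, mm9) read −1.48 and −1.60 on the wild type arrays and −1.54 and −1.59 on the knockout arrays of 17 dpp, and −2.71 and −2.40 on the wild type arrays and −2.45 and −4.44 on the knockout arrays of 26 dpp. For both genes the arrays of 17 dpp lay close together, and knockout replicate 2 at 26 dpp was the lowest of all 8. The differences between ages did not pass the test, at −1.66 for Ifit1 in wild type (95% interval −3.24 to −0.09, adjusted p = 0.0771) and −1.02 for Ifit3 (−2.51 to 0.47, adjusted p = 0.200). In knockout they were −1.98 (−3.56 to −0.41, adjusted p = 0.0883) and −1.88 (−3.37 to −0.39, adjusted p = 0.0874). The mouse genome holds a close copy of Ifit3, Ifit3b, and the probe may read both.

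Isg15 encodes a ubiquitin-like protein that is joined to other proteins after interferon. Its brighter probe (chr4:155573649-155573708, mm9) read −0.20 and −0.38 on the wild type arrays and −0.05 and −0.28 on the knockout arrays of 17 dpp, and −1.11 and −0.75 on the wild type arrays and −1.19 and −1.12 on the knockout arrays of 26 dpp. The ages did not overlap, and the differences of −0.64 in wild type (95% interval −1.27 to −0.01, adjusted p = 0.0836) and −0.99 in knockout (−1.62 to −0.36, adjusted p = 0.0524) did not pass the test. Its other probe (chr4:155573533-155573552) was well above background only on the 2 wild type arrays of 26 dpp, where it read −5.06 and −4.04. It passed the filter on dim probes through that group alone, which favours a higher reading there, so no fold is given. Its differences are drawn in the plot of differences with standard errors, and none passed the test. The probe read −5.58 and −6.08 on the wild type arrays of 17 dpp, and on the knockout arrays −5.52 and −6.20 at 17 dpp and −5.56 and −6.06 at 26 dpp.

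**Figure D2:**
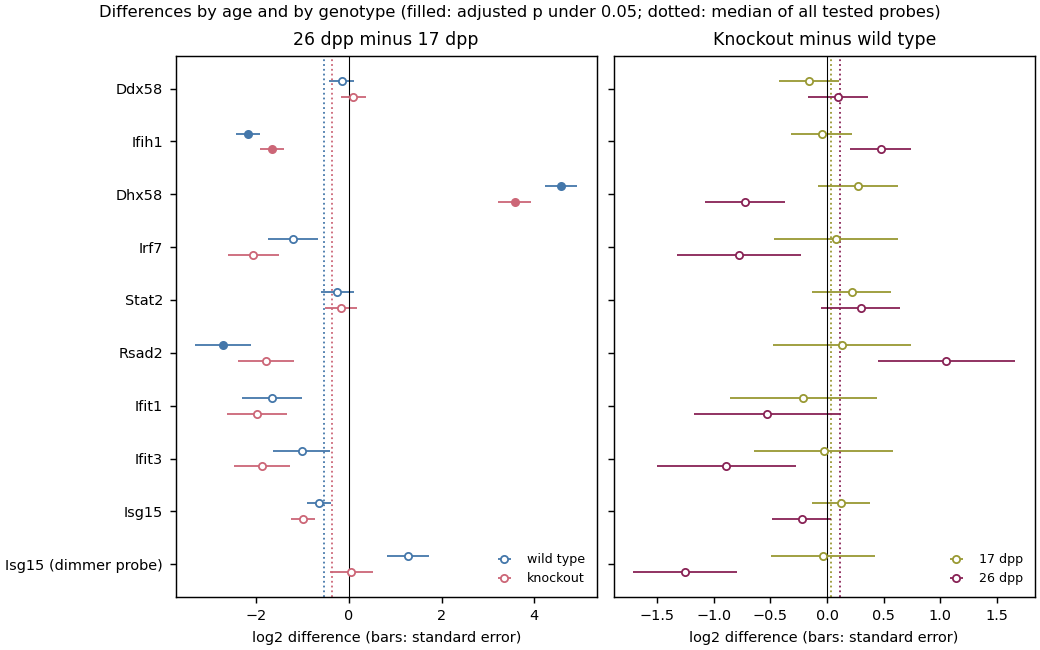
Differences on the log2 scale with standard errors, for 26 minus 17 dpp in each genotype (left) and for knockout minus wild type at each age (right); filled points passed an adjusted p of 0.05 and dotted lines mark the median of all tested probes. Dhx58 is the only gene far to the right by age, Ifih1 and Rsad2 are farthest to the left in wild type, and no genotype difference passed. The dimmer Isg15 probe passed the filter only through wild type at 26 dpp, the group where it is high.

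The whole array shifted between the ages on this scale. The median difference of all tested probes was −0.53 in wild type and −0.36 in knockout. Over the 9 genes the medians were −1.02 and −1.66. Without knockout replicate 2 at 26 dpp the knockout medians were −0.56 for all probes and −0.92 over the 9 genes. The knockout age differences were then 4.05 for Dhx58, −2.68 for Rsad2, −1.83 for Ifih1, −1.36 for Irf7 and −1.02 for Isg15. They were −0.92 for Ifit1, −0.89 for Ifit3, −0.62 for Stat2 and −0.07 for Ddx58. With the model-based background correction, which draws dim probes together, the wild type difference was −0.71 for Ifit1 and −0.55 for Irf7, and −0.49 and −0.34 with quantile normalization as well. With this correction the wild type median of all probes was −0.41, and with quantile normalization too it was −0.26. Relative to −0.53, the wild type difference was 5.12 for Dhx58, −2.18 for Rsad2, −1.65 for Ifih1, −1.13 for Ifit1, −0.67 for Irf7, −0.49 for Ifit3, −0.11 for Isg15, 0.29 for Stat2 and 0.37 for Ddx58. Thus 6 of the 9 lay below the median of all probes, and Isg15 was nearly at it. Cell type markers also differed by age. The mean of 8 Sertoli cell markers was 3.08 to 3.33 at 17 dpp and 1.46 to 1.52 at 26 dpp, but 2.57 on knockout replicate 2, and all 8 were well above background at 17 dpp. The mean of 8 endothelial markers was −1.06 to −0.70 and then −2.26 to −1.80, and that of 7 macrophage markers −0.57 to −0.07 and then −0.87 to −0.06. Among 5 markers of plasmacytoid dendritic cells, the main producers of interferon in blood, the mean was 0.56 to 0.82 and then −0.06 to 0.91. Single markers moved in opposite ways. In wild type Klk1 went from −4.99 and −5.41 to −2.09 and −0.46, while Siglech, Bst2, Tcf4 and Cox6a2 read lower at 26 dpp. Bst2 is also on the list of interferon-induced effectors read below. Of the macrophage markers in wild type, H2-Ab1 and Ptprc read higher at 26 dpp and Csf1r, Cd68 and Mrc1 lower. Adgre1 and Cd14 overlapped. Epididymis markers also differed by age in wild type, with means of 0.08 and 1.51 at 17 dpp and −5.48 and −5.44 at 26 dpp. The part of these cells in the age differences was not tested, and in whole testis fewer cells of a type and less RNA per cell cannot be told apart.

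Single arrays decided how many of the 9 genes passed by age. Irf7 and Ifit1 are among the genes counted here. They passed the filter on dim probes only through the groups of 17 dpp, which favours a lower reading at 26 dpp. In wild type the count was 7 (Dhx58 higher; Ifih1, Rsad2, Irf7, Ifit1, Ifit3 and Isg15 lower) in a fit that left out knockout replicate 2 of 26 dpp, where 68.4% of all probes passed, and the same 7 passed when the wild type arrays alone were fitted, where 69.5% did. It was 7 without knockout replicate 1 at 26 dpp as well, where 68.4% of all probes passed. It was 1 (Dhx58) without replicate 1 or replicate 2 of wild type at 17 dpp or replicate 1 at 26 dpp, and 0 without replicate 2 of wild type at 26 dpp, where 0% to 2.7% of all probes passed. In knockout, 2 of 9 genes passed with all arrays (Dhx58 and Ifih1), against 14.8% of all probes (6.93% higher, 7.86% lower). Without knockout replicate 2 at 26 dpp it was 7, the same 7 as in wild type, against 58.7%, and Rsad2 then differed by −2.68 between ages, where it had been −1.79. Leaving out knockout replicate 1 of 26 dpp gave a knockout count of 5, against 18.5% of all probes, and leaving out knockout replicate 2 of 17 dpp gave 1, against 3.53%. Leaving out knockout replicate 1 of that age or any 1 wild type array gave 0, against 0% to 0.177%.

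No difference between the genotypes passed the test for any of the 9 genes. At 17 dpp, 0 of 9 passed by limma, against 0.0688% of all probes, and 563 probes had an unadjusted p under 0.05. The differences of the brighter probes at 17 dpp ran from −0.21 for Ifit1 to 0.27 for Dhx58, with a median of 0.08 beside 0.04 for all probes. The 95% intervals were widest for Ifit1 (−1.79 to 1.37) and Ifit3 (−1.52 to 1.46) and narrowest for Isg15 (−0.50 to 0.75) and Ifih1 (−0.70 to 0.60). The knockout and wild type arrays of 17 dpp did not overlap for Dhx58 and Stat2, which were higher in knockout, and for Ifit1, which was lower, and 28.7% of all probes were separate in this way. Epididymis markers moved with the genotype at this age (0.08 and 1.51 against −5.46 and −5.39), and their part in these differences was not tested.

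At 26 dpp, 0 of 9 passed, against 0.00793% of all probes, with 1076 probes at an unadjusted p under 0.05. The largest differences were 1.06 for Rsad2 (95% interval −0.42 to 2.53), −0.89 for Ifit3 (−2.38 to 0.60), −0.78 for Irf7 (−2.11 to 0.55) and −0.73 for Dhx58 (−1.58 to 0.13), with an adjusted p of 0.536 for each. Ifit1 (−0.53), Ifih1 (0.47), Stat2 (0.30), Isg15 (−0.22) and Ddx58 (0.10) differed by less. The median over the 9 genes was −0.22, beside 0.12 for all probes. The arrays of the genotypes did not overlap for Ifih1, which was higher in knockout, and for Dhx58 and the brighter Isg15 probe, which were lower, where 32.7% of all probes were separate. Dhx58 was thus the 1 gene of 9 on opposite sides of wild type at the 2 ages, as were 4.59% of all probes.

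The 2 knockout arrays of 26 dpp read differently for these genes. Replicate 1 lay within −0.26 (Dhx58 and Isg15) to 0.53 (Ifit1) of the wild type mean of its age. Replicate 2 lay 1.95 above that mean for Rsad2, 0.75 above for Stat2, 0.64 above for Ifih1 and 0.26 above for Ddx58. It stood at −1.19 from it for Dhx58. In each of these cases it lay on the side of the mean of the 17 dpp arrays. For Ifit3 (−1.88), Ifit1 (−1.59) and Irf7 (−1.49) it lay on the other side, below every other array of either age. For Isg15 it lay at −0.19. For Stat2 and Ddx58 replicate 2 read above every other array of either age, at 2.77 and −0.51, and the ages overlapped. On the same array the Leydig cell markers (7 of 8 on the array) averaged −3.07, against −1.15 to 0.37 elsewhere, the macrophage markers −0.87, against −0.57 to −0.06, and the spermatogonial markers 1.36, against −0.54 to −0.26 on the other arrays of 26 dpp. Their part in the levels of these genes was not tested.

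**Figure D3:**
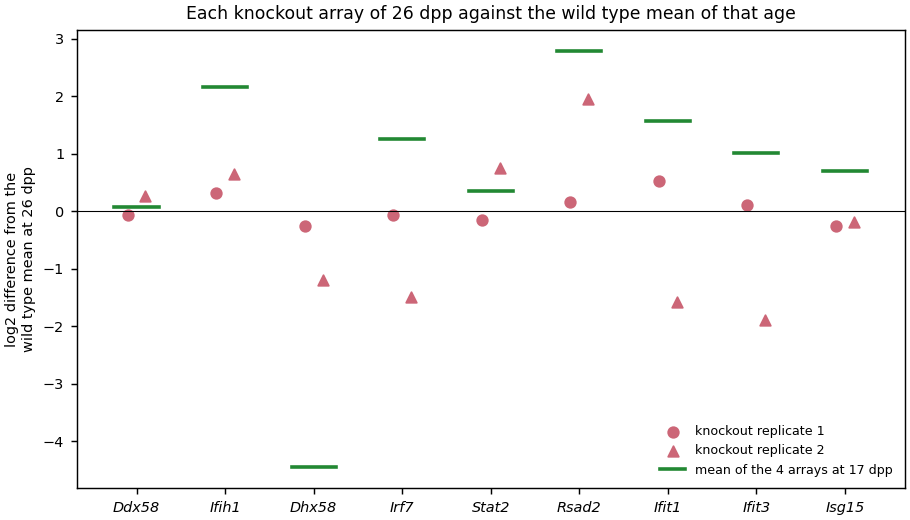
Difference of each knockout array of 26 dpp from the mean of the 2 wild type arrays of that age, on the log2 scale, for replicate 1 (circles) and replicate 2 (triangles), with the mean of the 4 arrays of 17 dpp as green bars. Replicate 1 stays within −0.26 to 0.53, while replicate 2 runs from −1.88 (Ifit3) to 1.95 (Rsad2), toward the 17 dpp mean for Rsad2 and Dhx58 and away from it for Ifit1, Ifit3 and Irf7.

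Averaged over both ages, 0 of 9 genes passed, as did 0% of all probes, with 849 probes at an unadjusted p under 0.05, and all 4 knockout arrays lay on one side of all 4 wild type arrays for 0 of 9 genes, against 0.465% of probes. The difference of the knockout effect between ages likewise passed for 0 of 9 genes and 0% of probes, with 779 probes at an unadjusted p under 0.05. In a fit that left out knockout replicate 1 of 26 dpp, so that replicate 2 alone stood for that group, 6 of the 9 passed at 26 dpp (Rsad2 and Stat2 higher; Dhx58, Irf7, Ifit1 and Ifit3 lower), against 44.1% of all probes. In that fit 3 passed averaged over both ages (Rsad2, Ifit1 and Ifit3), against 28.7%, and 4 passed for the difference of the effects (these 3 and Dhx58), against 30.9%. Without replicate 2 instead, 0 of 9 passed in any of these comparisons, and the largest difference at 26 dpp was 0.53 for Ifit1.

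The rest of the pathway was read from 6 lists with 120 further genes, of which 116 were on the array and 106 were tested. In wild type, 48 of the 106 fell and 7 rose from 17 to 26 dpp, where 26.6% of all probes fell and 17.6% rose. The median difference was −1.25 beside −0.53 for all probes. Relative to that median of all probes, 71 of the 106 lay below it. In knockout 23 fell and 3 rose, where 7.86% of all probes fell and 6.93% rose, with a median of −1.04 beside −0.36. Without knockout replicate 2 at 26 dpp this median was −1.265 beside −0.56. In none of the genotype comparisons did any of the 106 pass. The smallest p at 17 dpp belonged to Ifna2 (0.85), Tyk2 (0.75) and Isg20 (−1.10), all with an adjusted p of 1. At 26 dpp it belonged to Ifit2 (1.02, SE 0.34), Xaf1 (0.60) and Ifngr2 (1.17), with an adjusted p of 0.536. Wild type Ifit2 was not well above background there. Its "at least" fold of 1.87 allows for background only and not for the spread between arrays. Averaged over both ages Isg20 (−1.17) and Ifit2 (0.52) were among those with the smallest p, with an adjusted p of 0.826. For the difference of the effects the smallest p belonged to Xaf1 (0.90), Tyk2 (−1.37) and Bst2 (−1.0), with an adjusted p of 0.791.

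**Figure D4:**
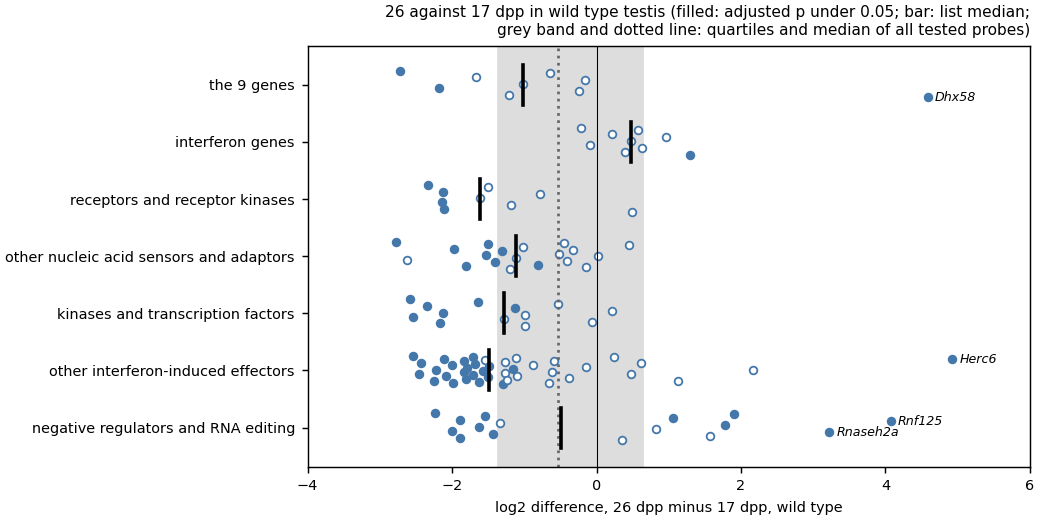
Difference between 26 and 17 dpp in wild type on the log2 scale for the 9 genes and the genes of 6 pathway lists; filled points passed an adjusted p of 0.05, bars are list medians, and the dotted line and grey band are the median and quartiles of all tested probes. The receptor, transcription factor and effector lists have medians of −1.62, −1.28 and −1.49, below −0.53 for all probes. The list of interferon genes has a median of 0.475, and Dhx58, Herc6, Rnf125 and Rnaseh2a lie far to the right.

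Among receptors and receptor kinases, 4 of 9 fell in wild type and none rose, with a median of −1.62. For this list and the next, 26.6% of all probes fell in wild type and 17.6% rose. Ifngr2, a chain of the interferon gamma receptor, fell by 2.34 (SE 0.54, adjusted p = 0.0222), Il10rb, the chain shared by the receptors of interferon lambda and interleukin 10, fell by 2.13, and the kinase Jak2 fell by 2.12. Among other nucleic acid sensors and adaptors, 8 of 19 fell and none rose, with a median of −1.11. Mavs, the adaptor through which Ddx58 and Ifih1 signal, went from 2.12 ± 0.11 to 0.15 ± 0.25 in wild type (mean ± SD, n = 2; adjusted p = 0.00775) and from 1.98 ± 0.26 to 0.26 ± 0.03 in knockout (adjusted p = 0.0201). Cgas, the cytoplasmic DNA sensor, fell by 1.80 in wild type. Tlr3, the endosomal receptor of double-stranded RNA, is counted among the 8 and was not well above background at 26 dpp in either genotype. It passed the filter on dim probes only through the groups of 17 dpp. That favours a lower reading at 26 dpp, so no fold is given. Rnf135, a ubiquitin ligase that activates RIG-I, fell by 1.92 in knockout.

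Among kinases and transcription factors, 7 of 13 fell in wild type and none rose, with a median of −1.28. For the lists given here, 26.6% of all probes fell in wild type and 17.6% rose. Irf9, which acts with Stat2 on DNA, fell by 2.35, Irf1 fell by 2.58 and Nfkb1 fell by 2.54, with adjusted p from 0.0171 to 0.0232. In knockout only Irf5 of these 13 passed, with a fall of 1.91, against 14.8% of all probes. Among other interferon-induced effectors, 22 of 40 fell and 1 rose in wild type, with a median of −1.49. Among the genes that passed, Gbp3 (−2.55), Trim21 (−2.46) and Xaf1 (−2.42) fell the most in wild type, and Oasl2 (−2.45), Gbp3 (−2.04) and Rtp4 (−2.03) in knockout. The antiviral kinase Eif2ak2, which binds double-stranded RNA, fell by 1.83 in wild type and by 1.98 in knockout. Of the interferon genes, 9 of 19 were tested. Their median in wild type was 0.475 beside −0.53 for all probes, and 7 of the 9 differences were above 0. With a model-based background correction this median was −0.03 beside −0.41. Only Ifna2 passed, with a rise of 1.30 in wild type (SE 0.42, adjusted p = 0.0469). It was dim and did not pass after a model-based background correction, and the interferon alpha genes are so alike that a probe may read several.

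Enzymes that attach or remove ISG15 were named by the rule for pathway genes and are given side by side, with no statement on them as a group. The activating enzyme Uba7 fell from 0.14 ± 0.59 to −2.10 ± 0.48 in wild type (adjusted p = 0.0123), and Usp18, which removes ISG15 and restrains the interferon receptor, fell from −0.20 ± 0.60 to −2.09 ± 0.03 (adjusted p = 0.0146). The conjugating enzyme Ube2l6 rose from 0.60 ± 0.04 to 2.50 ± 0.26 (adjusted p = 0.0224). Herc6, the main ISG15 ligase of the mouse, rose from −3.54 ± 0.32 to 1.39 ± 0.06 (30.3-fold, adjusted p = 0.00970). In knockout, Herc6 read −3.62 ± 0.15 and 0.16 ± 1.78 and also rose (adjusted p = 0.0298), and Uba7 and Usp18 fell by 1.92 and 2.13.

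The list of negative regulators and RNA editing genes has 16 tested genes, among them Uba7 and Ube2l6, which are neither. Of the 16, 5 rose and 7 fell in wild type, with a median of −0.49 beside −0.53 for all probes. Of all probes, 17.6% rose and 26.6% fell. Rnf125, a ubiquitin ligase that marks RIG-I and MDA5 for degradation, rose from −2.15 ± 0.16 to 1.92 ± 0.05 (16.8-fold, adjusted p = 0.00916), and Rnaseh2a, the catalytic subunit of RNase H2, rose from 1.77 ± 0.05 to 4.99 ± 0.12 (9.33-fold, adjusted p = 0.00820). Its partner subunit Rnaseh2b fell by 2.00. In knockout Rnf125 rose by 3.03, Rnaseh2a rose by 2.41, and Socs1, an inhibitor of Janus kinases, fell by 1.43. For the 106 genes together, the wild type count of 55, against 44.1% of all probes, was 78 without either knockout array of 26 dpp, against 68.4%. It was 3 without wild type replicate 1 at 26 dpp, against 2.7%, and 0 without any other 1 wild type array, against 0% to 0.584%. The knockout count of 26, against 14.8%, became 71 with knockout replicate 2 of 26 dpp left out, against 58.7%, and 3 with knockout replicate 2 of 17 dpp left out, against 3.53%. It became 0 with knockout replicate 1 of 17 dpp or any 1 wild type array left out, against 0% to 0.177%.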

How the data were processed

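RNA of whole testes (TRIZOL) was copied with an oligo-dT primer and labelled with Cy3, per the labels' protocols, and hybridised to 8 one-colour Agilent arrays that share 1 slide and 1 scan day. Agilent Feature Extraction 11.5.1.1 read the signals, per the file headers. Deposited scanner files give intensity values on a linear scale, unscaled between arrays, with processed signals already background-corrected. The authors' deposited value table holds log2 values of unstated scale. These followed the values computed here at a correlation of 0.9999 on each array, with column medians from −3.84 to −3.59, so scale and centring are known and a one-colour value has no direction. Outlier spots (103 to 200 per array) were dropped, spots of a probe were averaged, and log2 of each array's 75th percentile (416 to 628) was subtracted. Probes were kept if both arrays of any group had them well above background, of which 97 lost a value to outlier flags and were left out. Coordinates are those of the files (mm9), and no exon was assigned.

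Differences were tested two-sided with limma 3.58.1 in R 4.3.3 in 1 model of group means over all 8 arrays, with 4 residual and 2.2 prior degrees of freedom, and Benjamini-Hochberg adjustment over 37813 probes. An adjusted p under 0.05 counted as passed. The procedure was tested on simulated data. For a group not well above background, "at least" folds set the brighter group's mean against, per array, the higher of the probe's signal and the lowest signal well above background. A gene with several probes is given by its brightest. The number of arrays limits the precision, and the labels do not say what separates the biological replicates, so p-values measure the spread between these samples, which may be technical. The 9 genes, the lists and the tests were chosen with earlier results of these data known. Named pathway genes were the up to 3 with the largest passed difference in each direction per list and comparison, or the 3 with the smallest p where none passed in a genotype comparison; Eif2ak2 was added after its values were seen. 1 gene under this rule is not reported here. Marker lists of spermatogonia, pachytene spermatocytes, spermatids, Sertoli, Leydig, macrophage, lymphocyte, plasmacytoid dendritic, endothelial, red blood and epididymis cells are given as means of tested probes.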

Additional observations from a re-analysis of the deposited data

Results flagged for a closer look

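Dhx58 was singled out because its 2 knockout arrays lay on opposite sides of wild type at the 2 ages. They were above both wild type arrays at 17 dpp (−1.64 and −1.82 against −2.07 and −1.94) and below both at 26 dpp (2.32 and 1.39 against 2.50 and 2.66). Of all tested probes, 4.59% showed such a pattern. The difference of the knockout effect between ages was −1.0 (SE 0.50) and did not pass the test (adjusted p = 0.791). It was −0.54 without knockout replicate 2 at 26 dpp.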

How the results depend on the processing

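Other settings were compared with the values above, and the cause of each change was not tested unless fewer arrays make it. By age in wild type, 7 of the 9 genes passed with array weights (74.2% of all probes) or when only the arrays of the comparison were fitted (69.5%), 5 with a model-based (normexp) background correction (43%), and 0 to 7 when 1 array was left out (0% to 68.4%). In knockout, 0 passed with array weights (0.153%) or only those arrays (0%), and 0 to 7 with 1 array left out (0% to 58.7%). The pathway count was 84 with array weights and 0 to 78 with 1 array left out in wild type. In knockout it was 0 with array weights or only those arrays and 0 to 71 with 1 array left out. With 1 array left out, the genotype comparisons gave 0 to 6 of the 9 genes and 0 to 46 pathway genes at 26 dpp (0% to 44.1% of all probes), 0 to 3 and 0 to 28 averaged over both ages (0% to 28.7%), and 0 to 4 and 0 to 34 for the difference of the effects (0% to 30.9%). The high ends there left out knockout replicate 1 at 26 dpp, and a group with 1 array is assumed to vary like the others.

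Labels do not say that replicate numbers pair samples, and deviations of same-numbered arrays correlated at −0.37 to 0.11. With the replicate block, the pathway count in knockout by age was 12, against 5.2% of all probes, and Irf7 also passed there. The 9 genes gave the same number of calls in wild type.

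Among the 9 genes, none of the differences that passed with all arrays (Dhx58, Ifih1 and Rsad2 by age) changed sign under these settings, and signs turned for differences that had not passed. Single pathway genes were not followed across settings. With normexp, Ifit1 turned to 0.20 for the difference of the effects (0.093 with quantile normalization), 0.12 at 26 dpp and 0.023 averaged, and Irf7 to 0.0019 and 0.040; with quantile normalization Stat2 turned to −0.026 for the difference of the effects. With 1 array left out, the knockout differences at 17 dpp ran from −0.36 to 0.042 for Ddx58, −0.21 to 0.12 for Ifih1, −0.090 to 0.031 for Ifit3, −0.26 to 0.43 for Irf7 and −0.11 to 0.37 for Rsad2. At 26 dpp they ran from −0.066 to 0.26 for Ddx58, −1.59 to 0.53 for Ifit1, −1.88 to 0.10 for Ifit3 and −0.16 to 0.75 for Stat2. Averaged, they ran from −0.13 to 0.070 for Ddx58, −0.46 to 0.0061 for Dhx58, −0.90 to 0.16 for Ifit1, −0.96 to 0.036 for Ifit3, −0.70 to 0.0089 for Irf7 and −0.14 to 0.041 for Isg15. The difference of the effects ran from −1.38 to 0.74 for Ifit1, −1.85 to 0.13 for Ifit3 and −0.38 to 0.53 for Stat2, and the age difference in knockout from −0.10 to 0.30 for Ddx58 and −0.62 to 0.28 for Stat2.

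Signals not well above background limit Rsad2, Ifit1, Irf7 and the dimmer Isg15 probe, and 2 arrays per group limit every interval.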

Other observations

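Of the pathway genes tested, 83 have a RefSeq promoter window, and 23 of the 83 windows hold GAAANNGAAA on either strand. The motif was in 11 of the 37 windows of genes that fell from 17 to 26 dpp in wild type, in 1 of the 6 of genes that rose, and in 11 of the 40 of genes that did not pass.

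The 5 gene names whose levels over the 8 arrays, each centred on its own mean, lay closest to the mean profile of the 6 genes well above background on every array (Dhx58, Ddx58, Ifih1, Ifit3, Isg15 and Stat2) were Kbtbd4, Hax1, a lincRNA probe without a symbol, Mrpl43 and Kif22, at root mean square differences of 0.045 to 0.066. Kbtbd4 read 1.97 to 2.32. The mean profile is nearly flat by age, since it averages the rise of Dhx58 with the lower readings of Ifih1, Ifit3 and Isg15. Likeness to it is therefore no likeness to a gene that changed. The 9 genes themselves lay 0.19 (Ddx58) to 2.09 (Dhx58) from it. Against Dhx58 alone, a target chosen after its values were seen, the closest were 1700054K19Rik (0.10), Zbtb42 (0.15), Rwdd2a (0.20), 9430014N10Rik (0.22) and Ptar1 (0.22). The probes of 1700054K19Rik and 9430014N10Rik read −7.83 to −7.51 at 17 dpp, below the lowest signal well above background on any of those arrays (−5.56 to −5.26), so their distances and ranks rest on background signal. Zbtb42 read −4.46 to −4.08 at 17 dpp and −1.33 to 0.19 at 26 dpp, with the lowest of these on knockout replicate 2, as for Dhx58. Rwdd2a read −2.24 to −1.91 and then 1.08 to 2.64, again with the lowest on knockout replicate 2.

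Among the markers of other cells, the mean of lymphocyte markers was −2.94 to −2.43 at 17 dpp and −3.76 to −3.33 at 26 dpp, and that of 4 red blood cell markers was 1.63 to 2.40 and then 0.36 to 0.84.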
